A study of Arabidopsis thaliana with 15 samples.

Results

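Capped 5′ ends of RNA were compared between hen2-4 mutant and wild-type Arabidopsis thaliana seedlings after 10 min of treatment with flg22, a peptide of bacterial flagellin that plants sense as a sign of infection. The comparison took every library labelled with either genotype at this time, which gave 6 of the 15 libraries used, 3 per group. Both groups were Col-0 seedlings, 14 days old, taken whole in pools of 10, and only the mutants carried hen2-4, a T-DNA insertion line of the HEN2 gene. All seedlings had grown for 12 days on MS plates and 48 h in liquid MS before flg22 in DMSO was added to 3.3 µM, so flg22 was shared by both groups, and no untreated library was used here. The 9 other libraries were wild type, hen2-4 and rrp4-2 at 30 min, where rrp4-2 is a point mutant of the exosome core subunit RRP4. Each library came from its own pool, whereas the mutant is a single T-DNA line, and a whole seedling mixes root and shoot, in which fewer cells of a type and less RNA per cell cannot be told apart.

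The nuclear exosome is a multi-subunit ribonuclease that trims and destroys RNA from its 3′ end. It processes the precursors of small nuclear and small nucleolar RNAs and removes transcripts of short life, such as those made upstream of or antisense to genes. HEN2 is the RNA helicase of the plant nuclear exosome targeting complex, which hands RNA polymerase II transcripts of the nucleoplasm to the exosome, and the nucleolus uses the related helicase MTR4. Cap analysis of gene expression (CAGE) sequences the first bases of capped RNAs, so that a rise shows more capped 5′ ends at a start site, without telling synthesis from decay. Reads starting close together form a tag cluster (TC), and the value of a gene is the sum of the TCs the authors assigned to it.

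The 6 libraries held 14114750 to 24366630 tags in TCs, of which 1.02 to 1.93% were organellar, and 3 tags in 1 library corresponded to 0.120 to 0.194 CPM, where CPM is the tag count relative to the size of the library. Levels are given in CPM, and 18879 genes and 26504 TCs were abundant enough to be tested. Photosynthetic, root and epidermal markers were present in all 6 libraries, and none of the 4 seed storage protein genes reached the tested set. The flower markers left SEP3 alone in the tested set, at 4.61 to 5.71 CPM in wild type and 6.17 to 7.90 CPM in hen2-4. Among the hen2-4 libraries, replicate 1 stood apart in snoRNA genes, whose summed level was 689 CPM there against 268 and 256 CPM in the others and 85.7 to 139 CPM in wild type. Replicate 3 stood apart in the 12 heat shock genes listed, at 220 CPM against 95.5 and 99.1 CPM, with 65.6 to 102 CPM in wild type. Results on snoRNA, MIR and heat shock genes are given with and without the library concerned.

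HEN2 itself checked the labels. Its level was 42.9, 35.3 and 48.8 CPM in wild type and 9.06, 10.5 and 9.83 CPM in hen2-4, so each mutant library lay far below each control. The log2 fold change was -2.11 ± 0.24 (SE), with an adjusted p of 0.000284 (edgeR quasi-likelihood test, Benjamini-Hochberg over all genes). Starts remained in the mutant at the 5′ UTR, which CAGE can count whether or not the RNA continues past an insertion. HEN2 was the only gene called among 16 exosome nucleases and cofactors. Of the 11 exosome core genes none was called, and their median log2 fold change was 0.05 against 0.01 over all genes. Since 1.04% of all genes tested were called higher and 0.159% lower, no call in so short a list says little.

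At the gene level, more genes rose than fell. A gene was called when its adjusted p was at most 0.05 and its change at least 2-fold, and 197 genes were higher in hen2-4 (1.04% of those tested) and 30 lower (0.159%). In all 197 rises every hen2-4 library lay above every wild-type library (100%, against 10.5% of all genes tested). Such a separation in a called gene therefore adds no support to its call. The number of rises depended on single libraries, since it was 85 without wild-type replicate 1, 124 without wild-type replicate 3 and 129 without hen2-4 replicate 1. The falls numbered 17 without wild-type replicate 1, and 20 without either hen2-4 replicate 1 or hen2-4 replicate 2. Most genes had a single TC, since 23819 TCs made up the values of 18934 genes, and the share over all genes was not computed. Of the 197 rises, 163 belonged to such genes. Of the other 34, 10 were carried by a TC that was not the main one in wild type, a number that fell to between 3 and 6 when any 1 library was left out, with 3 without wild-type replicate 1.

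**Figure D1:**
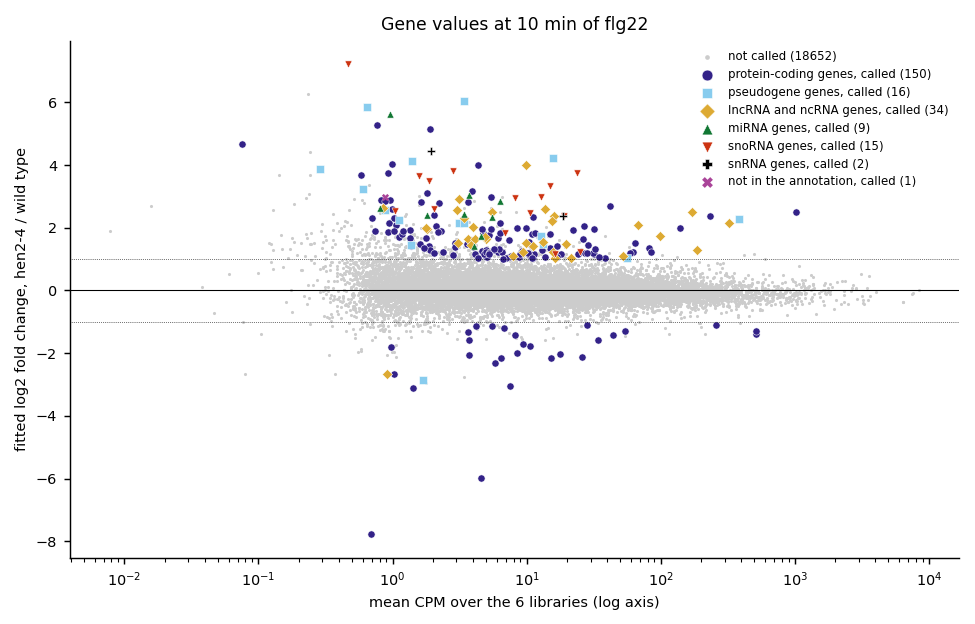
Fitted log2 fold change of hen2-4 against wild type (y axis) by mean CPM over the 6 libraries (x axis, log scale) for the 18879 genes tested, with called genes coloured by annotated type. The 15 snoRNA, 9 miRNA and 2 snRNA genes called all lie above 0, and fitted values of genes with no tag in 1 group are not bounds.

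Small noncoding RNA genes held the densest rises. Called higher were 15 of 30 snoRNA genes, 2 of 2 snRNA genes, 9 of 31 miRNA (MIR) genes, 18 of 129 lncRNA genes, 15 of 89 other ncRNA genes and 15 of 152 pseudogenes, against 122 of 18306 protein-coding genes (0.666%). The median log2 fold change was 2.25 in snoRNA genes, 1.56 in MIR genes, 0.34 in lncRNA genes and 0.00 in protein-coding genes. Without wild-type replicate 1 the calls numbered 7 snoRNA, 4 MIR, 10 lncRNA, 8 pseudogene and 44 protein-coding genes. Without wild-type replicate 2 they were 12 snoRNA, 5 MIR and 11 lncRNA genes. Leaving out wild-type replicate 3 gave 7 snoRNA, 4 MIR and 75 protein-coding genes, and leaving out hen2-4 replicate 1 or 2 gave 76 or 78 protein-coding genes.

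Small nucleolar RNAs guide the chemical modification of ribosomal RNA and are cut from longer capped precursors, so a CAGE tag near a snoRNA gene marks the precursor and not the mature RNA. All 30 snoRNA genes tested had a positive fold change, and in 26 of them all 3 hen2-4 libraries lay above all 3 wild-type libraries (86.7%, against 10.5% of all genes tested). The TCs carrying the 15 calls lay upstream of the annotated snoRNA, with midpoints at -387 to -9 bp from its start and a median of -171 bp.

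AT1G20015 had the highest level among them, at 2.02, 4.67 and 3.24 CPM in wild type and 74.9, 29.7 and 28.5 CPM in hen2-4, a log2 fold change of 3.74 ± 0.40 (adjusted p = 0.000200). AT5G44286 was at 0.0397, 0.544 and 0.584 CPM in wild type and 6.23, 5.54 and 4.14 CPM in hen2-4 (log2 fold change 3.82 ± 0.53). SNOR111 was at 3.29, 3.63 and 2.73 CPM against 14.4, 21.9 and 17.58 CPM (2.47 ± 0.22). Without hen2-4 replicate 1 the log2 fold change of AT1G20015 was 3.14, and without wild-type replicate 1 the log2 fold change of AT5G44286 was 3.22. In all 3 genes the groups did not overlap, and hen2-4 replicate 1 was far above its partners in AT1G20015 alone. SNOR105 had no tag in any wild-type library and 0.617, 0.998 and 1.18 CPM in hen2-4, which was at least 6.2-fold higher against a floor of 3 tags per library.

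The other snoRNA calls showed the split among the mutant libraries. AT3G58193 was at 1.19, 4.36 and 2.60 CPM in wild type and 66.7, 6.44 and 8.37 CPM in hen2-4, and AT3G47342 was at 6.82, 6.08 and 5.65 CPM against 68.5, 13.7 and 14.2 CPM. Replicates 2 and 3 still lay above wild type in both, by a smaller margin. Replicate 1 was the highest hen2-4 library in 25 of 30 snoRNA genes (83.3%) and 19 of 31 MIR genes (61.3%), against 34% of all genes. Without it, 8 of the 30 snoRNA genes were called, 28 were positive and their median was 1.37. Replicates 2 and 3 both exceeded all wild-type libraries in 26 of the 30 (86.7%, against 14.7% of all genes).

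The start regions of 8 called snoRNA genes are shown to let the sequence elements counted further on be read in place. They are the 4 genes given in full above and AT3G58193, AT3G47342, AT1G32385 and AT1G19373, and they were picked after their values and sequences were seen. In the last 4 of these, replicate 1 of hen2-4 stood apart, and none of them was called without it. It was at 50.9 CPM against 8.64 and 8.56 CPM in AT1G32385, and at 32.0 CPM against 6.24 and 5.59 CPM in AT1G19373. AT3G58193 holds none of the elements in the printed stretch. Each run gives 100 bases before and 20 after the 5′ edge of the TC in TAIR10, read 5′ to 3′ on the strand of the TC. Capitals mark the telo box AAACCCTA, the site II element TGGGCC or TGGGCT (both elements on either strand, so that TAGGGTTT, GGCCCA and AGCCCA are matches), the TATA box TATAAA and the upstream sequence element of snRNA promoters, searched as CCCACATCG on either strand.
AT1G20015 (Chr1:6941036-6941155, + strand): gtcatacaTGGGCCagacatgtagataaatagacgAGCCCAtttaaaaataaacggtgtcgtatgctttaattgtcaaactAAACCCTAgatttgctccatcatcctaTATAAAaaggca
AT5G44286 (Chr5:17839801-17839920, + strand): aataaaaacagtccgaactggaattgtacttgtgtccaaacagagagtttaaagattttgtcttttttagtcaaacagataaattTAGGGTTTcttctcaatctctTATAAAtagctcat
AT1G32385 (Chr1:11684582-11684701, + strand): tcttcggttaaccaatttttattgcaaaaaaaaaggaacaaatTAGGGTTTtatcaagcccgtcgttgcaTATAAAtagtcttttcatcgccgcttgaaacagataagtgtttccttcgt
AT1G19373 (Chr1:6696944-6697063, + strand): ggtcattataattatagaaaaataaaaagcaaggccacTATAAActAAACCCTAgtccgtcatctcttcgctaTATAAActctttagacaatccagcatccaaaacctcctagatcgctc
AT3G47342 (Chr3:17444876-17444995, + strand): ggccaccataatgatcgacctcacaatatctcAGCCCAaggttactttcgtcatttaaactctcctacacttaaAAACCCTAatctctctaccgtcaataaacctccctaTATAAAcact
SNOR111 (Chr1:4058060-4058179, + strand): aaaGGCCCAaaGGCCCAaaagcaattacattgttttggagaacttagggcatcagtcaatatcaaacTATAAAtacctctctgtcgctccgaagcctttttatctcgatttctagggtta
SNOR105 (Chr1:10151778-10151897, - strand): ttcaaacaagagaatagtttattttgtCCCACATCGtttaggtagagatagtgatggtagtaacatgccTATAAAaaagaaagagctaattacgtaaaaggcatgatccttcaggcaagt
AT3G58193 (Chr3:21558781-21558900, + strand): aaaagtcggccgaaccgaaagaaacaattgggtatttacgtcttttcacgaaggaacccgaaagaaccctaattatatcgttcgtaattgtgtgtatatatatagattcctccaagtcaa

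In windows from 150 bases before to 50 bases after the 5′ edge, the telo box was found at 13 of 19 snoRNA gene TCs called higher (68.4%) and at 23 of all 30 (76.7%), against 4.57% of 26099 nuclear TCs. The site II element was found at 13 of the 19 (68.4%) and 21 of the 30 (70%), against 20.9% of nuclear TCs. The TATA box on the strand of the TC was found at 11 of the 19 (57.9%) and 19 of the 30 (63.3%), against 26.3%. The called snoRNA TCs held these letters about as often as all snoRNA TCs did. The letters of the site II and upstream sequence elements can overlap by 4 bases, and a match says nothing of a factor.

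The gene values of both snRNA genes tested rose. U12, the small nuclear RNA of the minor spliceosome, was at 7.57, 5.76 and 4.54 CPM in wild type and 29.9, 29.0 and 35.1 CPM in hen2-4 (log2 fold change 2.38 ± 0.34, adjusted p = 0.00147). U6-1, a U6 RNA of the spliceosome that RNA polymerase III transcribes, was at 0.159, 0.0454 and 0.324 CPM against 3.51, 3.39 and 4.09 CPM (4.44 ± 0.52). Without wild-type replicate 3 the log2 fold change of U6-1 was 5.04. Neither gene had overlapping groups, and hen2-4 replicate 1 did not stand apart in either. The U12 TC had its midpoint at -11 bp from the annotated start and that of U6-1 at -45 bp. The U6-1 TC, at Chr3:4951532-4951572, ended before the annotated gene start at 4951597. Its tags therefore mark capped RNA that starts upstream of the gene, and the level of U6 RNA itself was not measured. Their start regions, in the same layout, show the upstream sequence element at U12 and a TATA box joined to a site II element at U6-1.
U12 (Chr1:22602960-22603079, + strand): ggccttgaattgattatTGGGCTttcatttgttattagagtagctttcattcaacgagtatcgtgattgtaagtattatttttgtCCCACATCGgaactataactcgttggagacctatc
U6-1 (Chr3:4951432-4951551, + strand): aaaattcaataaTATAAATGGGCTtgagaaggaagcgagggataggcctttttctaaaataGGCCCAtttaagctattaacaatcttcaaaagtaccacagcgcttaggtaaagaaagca

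The upstream sequence element was rare, at 52 of 26099 nuclear TCs (0.199%), and 19 of these 52 were called higher, against 5.11% of all TCs. The share called differs by class, so that of all TCs of the class is given in brackets. With the element, 8 of 11 intergenic (27.6%), 3 of 5 antisense (40.4%) and 2 of 3 upstream antisense TCs (44%) were called. So were 5 of 19 primary (1.52%) and 1 of 14 alternative TCs (1.71%). The 19 included the TCs of U12 and SNOR105. Also among the 19 were the TCs of genes named here by the size of their rise, AT1G49700 and AT3G63052. AT1G49700 was at 0.159, 0.136 and 0 CPM in wild type and 1.66, 1.40 and 2.59 CPM in hen2-4 (4.04 ± 0.54). AT3G63052 was at 0.159, 0.181 and 0 CPM against 1.60, 1.45 and 2.21 CPM (3.75 ± 0.55). Both are annotated as protein-coding genes without a known function.

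MIR genes give rise to microRNAs through capped primary transcripts that DCL1 cuts in the nucleus. MIR396a, whose microRNA targets growth-regulating factors, was at 0.0397, 0.0454 and 0 CPM in wild type and 2.65, 1.45 and 1.55 CPM in hen2-4, a ratio of 57.2 from pooled tags (95% counting interval 15.4 to 479). MIR825 was at 1.27, 1.04 and 2.34 CPM against 11.3, 12.9 and 9.03 CPM (2.86 ± 0.38). MIR162b, whose microRNA targets DCL1, was at 2.18, 1.63 and 1.62 CPM against 9.74, 10.0 and 7.85 CPM (2.33 ± 0.29). The 3 hen2-4 libraries were above wild type in each of these genes, as in every called rise.

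The miR156 and miR157 family, which targets SPL transcription factors and holds plants in the juvenile phase, had 5 genes tested, of which 3 were called higher against 9 of all 31 MIR genes. MIR156b was at 0.793, 0.544 and 0.324 CPM in wild type and 3.21, 3.09 and 2.87 CPM in hen2-4 (2.40 ± 0.35). MIR157c was at 1.47, 2.99 and 1.88 CPM against 7.71, 6.19 and 7.19 CPM (1.73 ± 0.36), and the TC with most of the difference lay 103 bp into the annotated gene, between the mature arms. MIR156c was at 0.357, 0.136 and 0.130 CPM against 2.34, 1.35 and 0.517 CPM (2.63 ± 0.60). Groups did not overlap in these 3 genes, and without wild-type replicate 1 the log2 fold change of MIR156c was 3.31. The 2 others were not called, MIR156a at 1.81 ± 0.54 (adjusted p = 0.129) and MIR157a at 0.06 ± 0.38 (adjusted p = 0.976), and the groups overlapped in MIR157a. The other calls were MIR160a (15.97, 1.85 and 2.16 CPM in hen2-4), MIR775 (12.5, 2.45 and 2.40 CPM) and MIR408 (7.09, 6.49 and 4.14 CPM). These 3, MIR156c and MIR157c lost their call without hen2-4 replicate 1, and also without wild-type replicate 1 or wild-type replicate 3, whereas MIR396a, MIR825, MIR156b and MIR162b kept theirs under every alternative run. The mature sequences of called genes are shown to group them, with the seed (bases 2 to 8) in capitals.
miR156b-5p: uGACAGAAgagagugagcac
miR156c-5p: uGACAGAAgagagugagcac
miR157c-5p: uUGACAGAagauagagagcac
miR396a-5p: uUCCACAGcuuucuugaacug
miR825: uUCUCAAGaaggugcaugaac
miR162b-3p: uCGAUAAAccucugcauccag
miR160a-5p: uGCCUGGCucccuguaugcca
miR775: uUCGAUGUcuagcagugcca
miR408-3p: aUGCACUGccucuucccuggc

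The miR156b and miR156c strands were the same sequence, and miR157c carried their seed shifted by 1 base, while the other seeds differed from each other. CAGE measured capped 5′ ends at these genes, and the mature microRNAs were not measured. The MIR157c TC with most of the difference began past the printed miR157c-5p, so RNA starting there lacks that microRNA. In the list of 8 cap-binding and miRNA processing genes none was called (median log2 fold change 0.11), where 1.04% of all genes were called higher and 0.159% lower.

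**Figure D2:**
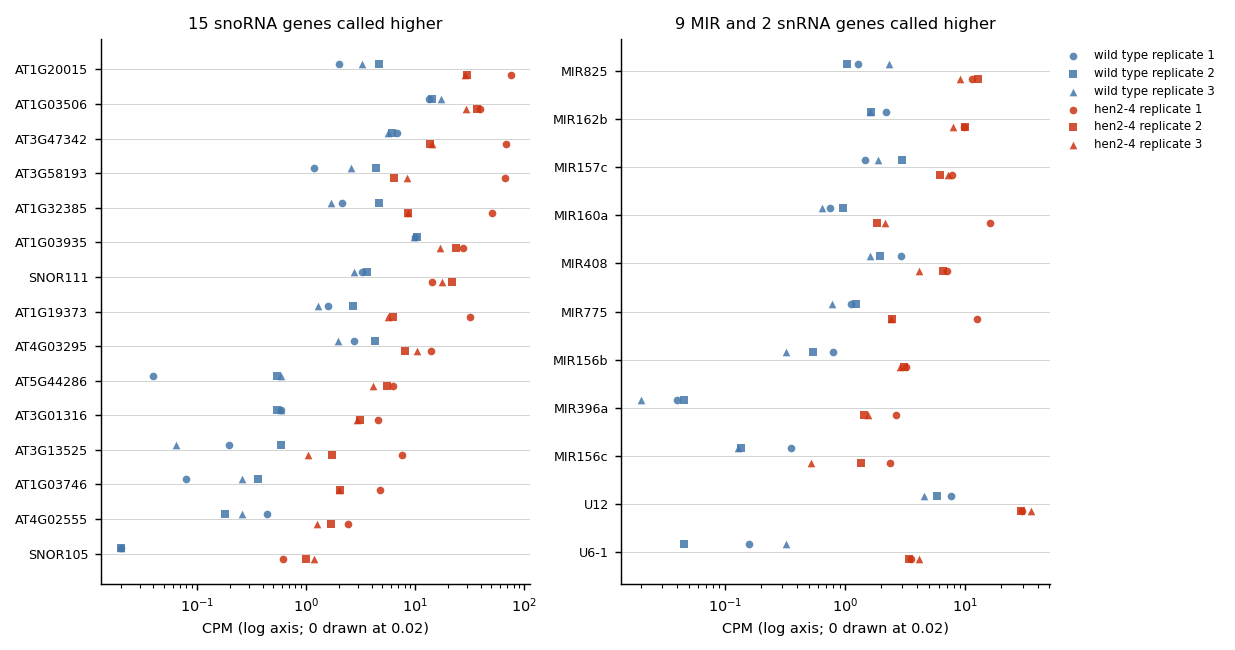
CPM (x axis, log scale, 0 drawn at 0.02) of the 15 snoRNA genes (left) and the 9 MIR and 2 snRNA genes (right) called higher, with 1 point per library, blue for wild type and red for hen2-4, and 1 marker shape per replicate number. The red circles of hen2-4 replicate 1 lie apart from the other red points in AT3G58193, AT3G47342, AT1G32385 and MIR160a and among them in SNOR111, MIR162b and U12.

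The largest rise by fitted change among genes of at least 1 CPM was that of AT3G10282, a pseudogene, at 0.0793, 0.136 and 0.0649 CPM in wild type and 6.54, 5.84 and 7.85 CPM in hen2-4 (6.05 ± 0.41). AT1G47915, an F-box protein gene, was at 0, 0.0454 and 0.0649 CPM against 1.29, 1.65 and 1.55 CPM, a ratio of 47.4 (interval 12.7 to 398). AT3G26742, an uncharacterized gene, was at 0.119, 0.0454 and 0.130 CPM against 5.43, 3.69 and 1.93 CPM (5.16 ± 0.50). All 3 were nearly silent in wild type. The pseudogene AT5G56544 had a ratio of 77.4 (interval 13.4 to 3098), with 1.91, 1.15 and 0.799 CPM in hen2-4. The remaining genes in this list were the pseudogene AT5G28280 (4.13 ± 0.74), AT1G07885 (4.01 ± 0.54), the ncRNA gene AT1G16635 and EMB2743, an F-box associated protein gene (3.69 ± 0.69). AT1G16635 was at 44.4 CPM in hen2-4 replicate 1 and 4.89 and 6.30 CPM in the others, against 0.389 to 1.63 CPM in wild type, and its fitted change was 4.00 with and 2.29 without that replicate. Without hen2-4 replicate 1 the log2 fold change of AT5G28280 was 3.45 and the log2 fold change of AT1G07885 was 3.38, and without wild-type replicate 2 the log2 fold change of AT1G07885 was 5.05 and the log2 fold change of EMB2743 was 4.33. AT5G56544, AT5G28280 and EMB2743 were not called without wild-type replicate 1.

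Rises were not confined to rare RNAs. The 5 called genes with the highest level in hen2-4, picked after their values were seen, began with AT5G25280, a serine-rich protein gene at 280, 268 and 366 CPM in wild type and 1765, 2004 and 1470 CPM in hen2-4 (2.52 ± 0.27). AT5G11090 was at 82.6, 71.0 and 76.0 CPM against 404, 413 and 364 CPM (2.36 ± 0.21). GUT15, a noncoding RNA first isolated for its short half-life, was at 55.2, 48.6 and 50.3 CPM against 264, 363 and 255 CPM (2.52 ± 0.25). In each of these the lowest mutant library was far above the highest control. AT4G13495, an ncRNA gene, had means of 118 ± 22.9 and 526 ± 70.1 CPM, and the pseudogene AT1G79245 had means of 131 ± 30.7 and 643 ± 246 CPM (SD, n = 3).

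A few other called genes were picked after their values were seen and stand for no tested group. AT3G04160, annotated as a U11/U12 small nuclear ribonucleoprotein of the minor spliceosome, was at 11.0, 8.57 and 11.2 CPM in wild type and 50.8, 50.3 and 28.3 CPM in hen2-4 (2.07 ± 0.28). SR34b, an SR splicing factor, had a log2 fold change of 1.21 ± 0.28, and HEN4, a KH-domain RNA-binding protein, one of 1.33 ± 0.14. The 3 LSU genes, named for their response to low sulfur, rose by 2.06 ± 0.36 (LSU1), 1.28 ± 0.26 (LSU2) and 1.18 ± 0.23 (LSU3). The hen2-4 libraries were above all wild-type libraries in each of these 6 genes, as in all 197 called rises.

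Few genes fell, and some of them nearly vanished. FLC, the MADS-box repressor of flowering, was at 1.67, 1.22 and 1.23 CPM in wild type and had no tag in any hen2-4 library, which was at least 8.67-fold lower against the floor of 3 tags per library. It was the only call among 11 flowering genes tested, whose median was -0.02. MRD1 was at 9.76, 8.98 and 8.502 CPM against 0, 0 and 0.376 CPM (-5.99 ± 0.67, adjusted p = 0.000284). HEI10, a RING-type ligase that promotes meiotic crossovers, was at 12.7, 11.8 and 15.5 CPM against 1.23, 1.80 and 1.74 CPM (-3.05 ± 0.37, adjusted p = 0.000451). Each of these genes fell in all 3 mutant libraries.

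MRD1 and HEI10 overlap on opposite strands of chromosome 1, at 19963047-19964712 and 19963267-19966952 (TAIR10). HEI10 had 3 TCs, and the first 2 in the direction of transcription were lost. The primary TC was at 7.21, 7.37 and 9.84 CPM in wild type and 0, 0 and 0.0455 CPM in hen2-4, a ratio of 472 in favour of wild type (interval 84.3 to 18684). The third TC, 1038 bp into the gene, was at 1.96, 1.73 and 2.20 CPM against 1.19, 1.73 and 1.59 CPM (-0.37 ± 0.32) and did not pass the test. The MRD1 TC, at Chr1:19964027-19964153 on the minus strand, lay between the lost and the remaining starts. The gap between its nearer edge and the primary TC of HEI10 was 718 bp. In rrp4-2 at 30 min the HEI10 gene value was 6.61 CPM, against 16.8 CPM in wild type and 2.49 CPM in hen2-4 at that time.

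AT5G35940, a mannose-binding lectin gene, fell from 13.2, 7.67 and 8.18 CPM to 1.79, 2.05 and 1.97 CPM (-2.32 ± 0.37), and its neighbour rose. The neighbour, the pseudogene AT5G35935, lies head to head with it on the other strand, and was at 1.67, 1.36 and 1.75 CPM in wild type and 29.0, 30.0 and 30.6 CPM in hen2-4 (4.23 ± 0.28). Their TCs were 585 bp apart. At 30 min AT5G35935 was also higher in hen2-4 (3.56) but lower in rrp4-2 (-2.69), each against the same wild-type libraries.

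Genes of triterpene synthesis, which is clustered in the genome and active in roots, were among the falls. THAS1, the thalianol synthase, was at 10.5, 11.8 and 9.35 CPM in wild type and 2.10, 1.95 and 3.06 CPM in hen2-4 (-2.15 ± 0.37), and MRN1, the marneral synthase, was at 2.93, 3.40 and 1.30 CPM against 0.185, 0.2995 and 0.376 CPM (-3.11 ± 0.69). The cytochrome P450 genes of the thalianol cluster, CYP708A2 (-1.70 ± 0.31) and CYP705A5 (-1.78 ± 0.31), fell too and were picked after their values were seen. Root markers were also lower, with a summed level of 441 to 825 CPM in wild type and 272 to 364 CPM in hen2-4. PYK10, a root beta-glucosidase, made up most of that sum, at 753, 442 and 375 CPM against 217, 304 and 240 CPM (-1.05 ± 0.27, adjusted p = 0.0697). All 6 root markers had a negative fold change, from -1.05 to -0.03, none was called, and their part in the falls was not tested.

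The other named falls were AT5G26270 (27.8, 19.8 and 27.3 CPM to 5.61, 6.44 and 4.89 CPM), the defensin-like gene AT4G22214, the lncRNA gene AT2G05914 and the pseudogene AT2G04460, with fitted changes from -2.14 to -2.87. Among the rest, picked after their values were seen, VSP1 and VSP2, vegetative storage proteins induced by jasmonate, changed by -2.02 ± 0.31 and -1.43 ± 0.31. RBCS1B, a small subunit of Rubisco, changed by -1.31 ± 0.27, and since it has near-identical copies its uniquely mapped tags leave its level uncertain. MRN1 lost its call without any of the 6 libraries but wild-type replicate 3, and AT4G22214 without any but wild-type replicate 2. Among called TCs of at least 5 CPM in wild type, the largest fitted falls were those of the primary HEI10 TC and of TCs of MRD1, AT5G35940, THAS1 and AT5G26270.

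**Figure D3:**
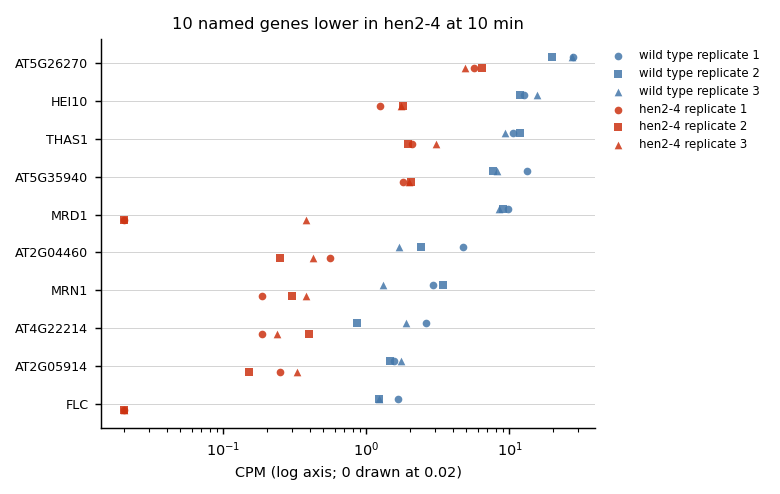
CPM (x axis, log scale, 0 drawn at 0.02) of the 10 genes with the largest fitted fall among those of at least 1 CPM, with 1 point per library, blue for wild type and red for hen2-4. FLC has no tag in any hen2-4 library and MRD1 only in replicate 3, and in the other 8 genes the red points lie below the blue.

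Lists tied to the treatment gave no call, where 1.04% of all genes tested were called higher and 0.159% lower. At these shares lists this short would seldom hold a call, so the absence of calls says little about them. Among 13 early flg22 response genes none passed, with a median log2 fold change of 0.16. WRKY33, a transcription factor of this response, had the largest value, at 153, 263 and 176 CPM in wild type and 425, 362 and 283 CPM in hen2-4 (0.85 ± 0.25, adjusted p = 0.115). The groups did not overlap there, whereas those of FRK1, a kinase gene induced later, did. None of 7 flg22 perception genes (median 0.12), 27 NLR immune receptor genes (median 0.01) or 7 reference genes (median -0.05) was called. None of 10 clock genes was called either, with a median of 0.46, and LHY, a morning gene, had the largest value (1.73 ± 0.55, adjusted p = 0.160). All 12 heat shock genes had a positive fold change without a call, with a median of 1.77 against 0.01 over all genes, or 1.67 with HSP21, which had no tag in wild type, at its bound of 3.10-fold. The hen2-4 replicate 3 value was the highest of the mutants in all 12, and without it the median was 0.42 (0.34 over the 11 genes other than HSP21), with 12 positive and 0 called. In 4 of the 12 all hen2-4 libraries were above all wild-type libraries (33.3%, against 10.5% of all genes). HSP17.6A, a small heat shock protein gene, was at 1.59, 3.58 and 2.47 CPM in wild type and 2.34, 6.64 and 33.7 CPM in hen2-4. Over the 16 lists, 2 genes were called, HEN2 and FLC, and 4 without hen2-4 replicate 1.

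At the level of tag clusters the asymmetry was larger. Of the 26504 TCs, 1355 were higher in hen2-4 (5.11%) and 71 lower (0.268%), and leaving out any 1 library gave 974 to 1239 rises and 52 to 91 falls. Only 381 of the rises lay in gene values, and 973 were antisense, upstream antisense or intergenic, classes that made up 9.98% of the TCs tested and 71.8% of the rises. Antisense TCs lie inside a protein-coding gene on its other strand, and 642 of 1589 rose (40.4%, median log2 fold change 1.26). Upstream antisense TCs lie within 400 bp before a protein-coding gene on the other strand, and 106 of 241 rose (44%, median 1.60). Of 816 intergenic TCs 225 rose (27.6%, median 0.50). TCs had been kept at 1 TPM in at least 3 libraries of any group, so those near silent in wild type could enter through mutants. Called TCs had a median wild-type level of 0.213 (antisense), 0.217 (upstream antisense) and 0.197 CPM (intergenic), against 1.70, 2.15 and 2.04 CPM in hen2-4. These shares thus depend in part on that filter, and how far was not tested. The same limit holds for gene values, which are sums of TCs.

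Starts in the sense direction seldom changed. Primary TCs, within 100 bp of the annotated gene start, rose in 155 of 10189 cases (1.52%) and fell in 35. Alternative TCs, all others in a gene value, rose in 226 of 13214 cases (1.71%) and fell in 34, with 124 rises without wild-type replicate 1. Most alternative TCs lay in 5′ UTRs. When any annotated transcript start was counted 9963 of the TCs tested were alternative, and with a 500-bp primary window 3098 were. By the feature at the TC, 53 of 439 intronic TCs rose (12.1%), 46 of 328 in noncoding exons (14%) and 90 of 1149 upstream of a gene (7.83%), against 143 of 17673 in 5′ UTRs (0.809%) and 29 of 3552 in coding sequence (0.816%).

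**Figure D4:**
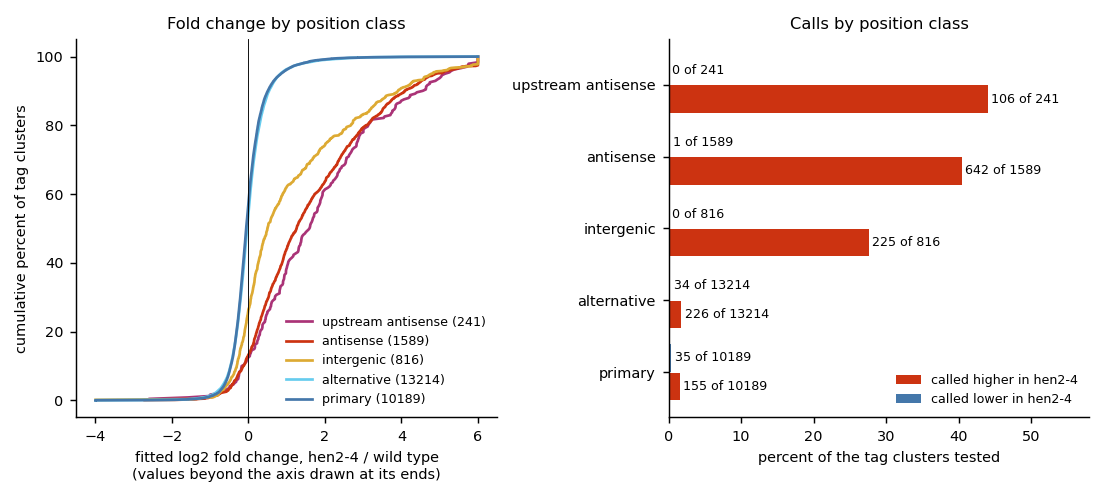
Left, cumulative percent of TCs (y axis) by fitted log2 fold change of hen2-4 against wild type (x axis) for the 5 position classes; right, percent of tested TCs called in each class, with red bars for higher and blue bars for lower. The curves of upstream antisense and antisense TCs are shifted to the right of those of primary and alternative TCs, with 44% and 40.4% called higher against 1.52% and 1.71%.

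The share of all tags in antisense TCs was 0.224, 0.221 and 0.242% in wild type and 0.553, 0.534 and 0.502% in hen2-4, a ratio of 2.31. The share in upstream antisense TCs was 0.0460, 0.0517 and 0.0533% against 0.132, 0.107 and 0.113%, a ratio of 2.34. In both classes the groups did not overlap, and the exact two-sided permutation test gave p = 0.1, the smallest that 3 against 3 libraries allow (0.233 after adjustment over 7 classes). Intergenic tags made up 0.744 ± 0.171% and 0.828 ± 0.0451% (SD, n = 3), and these groups overlapped (exact permutation p = 0.4).

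By position along the sense gene, antisense TCs were commonest in the part nearest the 3′ end and the share called was highest there. With the sense gene cut into 5 equal parts, in the part at its 3′ end 299 of 616 antisense TCs were called higher (48.5%, median log2 fold change 1.74). In the part at its 5′ end 51 of 141 were (36.2%, median 1.14), and the 3 parts between had 34.2 to 35.6%. By the feature of the sense gene the order was less clear, since 228 of 481 TCs opposite 3′ UTRs rose (47.4%, median 1.65), 32 of 69 opposite 5′ UTRs (46.4%, median 1.98), 21 of 44 opposite a UTR or other exon not resolved further (47.7%, median 1.30), 97 of 241 opposite introns (40.2%, median 1.26) and 264 of 754 opposite coding sequence (35%, median 1.01).

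Among called upstream antisense TCs of at least 5 CPM in hen2-4, the one with the largest fitted rise lay 220 bp before AT3G28140, at Chr3:10470044-10470301, and was at 0.360, 0.182 and 0.324 CPM in wild type and 34.9, 37.1 and 27.8 CPM in hen2-4 (6.82 ± 0.28, adjusted p = 2.06e-09). It overlaps the annotated noncoding gene AT3G00460. The sense gene rose as well, from 13.6, 11.0 and 14.3 CPM to 52.1, 53.7 and 47.3 CPM (1.98 ± 0.30). The next lay 253 bp before AT2G18740, which codes for a small nuclear ribonucleoprotein, at Chr2:8122852-8123033, and was at 1.36, 0.910 and 1.29 CPM against 56.4, 64.5 and 48.5 CPM (5.56 ± 0.34). Here the sense gene was at 31.3 ± 2.36 CPM and 33.7 ± 4.17 CPM (SD, n = 3; 0.10 ± 0.14). Both TCs rose from 1.36 CPM or less in wild type to a level above the median wild-type gene of 12.1 CPM. Their start regions are shown in the layout used above.
Antisense of AT3G28140 (Chr3:10470282-10470401, - strand): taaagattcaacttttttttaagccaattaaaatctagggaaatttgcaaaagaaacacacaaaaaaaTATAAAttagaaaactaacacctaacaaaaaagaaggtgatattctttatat
Antisense of AT2G18740 (Chr2:8123014-8123133, - strand): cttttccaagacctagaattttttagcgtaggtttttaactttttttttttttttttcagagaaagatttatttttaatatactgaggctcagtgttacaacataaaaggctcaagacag

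The other named upstream antisense TCs lay before SOT18, a sulfotransferase of glucosinolate synthesis, and AT2G29710, a UDP-glycosyltransferase gene. The TC at SOT18, which also lies antisense in the 3′ part of its neighbour AT1G74088, was at 0.160, 0.319 and 0.259 CPM in wild type and 8.89, 7.08 and 7.92 CPM in hen2-4 (5.00 ± 0.35), while SOT18 itself was at 34.8 ± 2.73 CPM and 38.1 ± 3.72 CPM (0.13 ± 0.19). The TC at AT2G29710 was at 0.207 ± 0.0178 CPM and 5.72 ± 2.29 CPM (SD, n = 3). Of the sense genes beside the 106 upstream antisense rises, 93 were tested and 2 were called higher, AT3G28140 and AT3G51180, a zinc finger protein gene (2.15%, against 0.666% of protein-coding genes), and none lower. Their median log2 fold change was 0.07, against 0.00 over protein-coding genes. Of 512 sense genes of antisense rises 8 were called higher (1.56%), with a median of 0.07.

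Of the 4 antisense TCs named by the same rule, the one opposite the 3′ UTR of AT2G25964 was at 0.721, 0.410 and 0.324 CPM in wild type and 29.0, 23.8 and 21.5 CPM in hen2-4 (5.60 ± 0.32). The one opposite coding sequence of XTH4, an enzyme that remodels cell wall xyloglucan, was at 0.120, 0.0910 and 0.259 CPM against 8.002, 8.62 and 5.19 CPM (5.57 ± 0.50), and XTH4 itself was at 35.3 ± 2.16 CPM and 34.0 ± 3.03 CPM. Those opposite AT4G38810, a calcium-binding protein gene, and AT5G41140, a myosin-related gene, were higher in hen2-4 replicate 1 than in the others, at 14.0 against 3.13 and 3.18 CPM and at 28.7 against 11.0 and 8.69 CPM. In wild type these last 2 TCs did not exceed 0.455 CPM. The sense genes of all 4 did not pass the test.

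Among called intergenic TCs of at least 5 CPM in hen2-4, the one with the largest change lay 317 bp from AT5G62720, at Chr5:25191050-25191121, and was at 0.0400, 0.0455 and 0 CPM in wild type and 12.7, 13.8 and 14.7 CPM in hen2-4, a ratio of 432 (interval 119 to 3570). The TC at Chr1:28515870-28515920 was at 0.400, 0.592 and 0.129 CPM against 38.2, 33.7 and 41.4 CPM (6.56 ± 0.64). It lies at the start of AT1G75945 on the same strand, although the authors' gene values do not hold it, and in rrp4-2 at 30 min it stayed at 0.822 CPM against 44.5 CPM in hen2-4. The 2 others were at Chr1:13146374-13146392 (0.285 ± 0.134 and 12.0 ± 2.14 CPM) and at Chr3:21831393-21831410, 564 bp from PIL6 (24.1, 6.88 and 7.87 CPM in hen2-4). Of the 816 intergenic TCs, 224 lie inside a protein-coding gene of the annotation used here and 30 of them rose (13.4%), whereas 154 of the 458 outside any annotated gene did (33.6%).
Intergenic near AT5G62720 (Chr5:25190950-25191069, + strand): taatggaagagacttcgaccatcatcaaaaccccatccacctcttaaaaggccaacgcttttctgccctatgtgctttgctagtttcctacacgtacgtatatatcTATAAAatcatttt
At the start of AT1G75945 (Chr1:28515901-28516020, - strand): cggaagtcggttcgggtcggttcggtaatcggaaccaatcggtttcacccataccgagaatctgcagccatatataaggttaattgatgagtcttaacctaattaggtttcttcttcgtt

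These start regions are those of the 2 intergenic TCs with the largest changes above that level, and the first has a TATA box just past the 5′ edge of the TC. Among primary TCs of at least 5 CPM in hen2-4 the 4 largest fitted rises called were those of AT3G10282, AT5G35935 and AT1G16635, given above as genes, and of AT1G12290, a CC-NBS-LRR disease resistance gene, whose TC was at 0.240, 0.410 and 0.841 CPM in wild type and 5.16, 5.97 and 4.91 CPM in hen2-4 (3.49 ± 0.43). Among alternative TCs of that level they were those of the snoRNA genes AT5G44286, AT1G20015 and AT3G58193 and a TC in the 3′ UTR of AT5G13560. The last was at 0.681, 1.55 and 0.971 CPM against 18.1, 15.1 and 17.0 CPM (3.97 ± 0.32).

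Whether a gene's tags moved between its TCs was tested with diffSplice for 3584 TCs of 1668 genes. Called were 134 TCs (3.74%) in 72 genes, of which 70 were used more and 64 less in hen2-4. Each TC was tested against the other TCs of its gene, so in a gene with 2 TCs both get the same p with opposite signs. The numbers used more and less are therefore not independent. Leaving out 1 library gave 25 to 50 TCs used more and 21 to 48 used less, with the lowest numbers without wild-type replicate 1. The numbers also fell more than 1.5-fold without wild-type replicates 2 (36 and 34) and 3 (33 and 29) and hen2-4 replicate 2 (40 and 32). Introns held 21 of the 70 TCs used more, beside 171 of the 3584 tested. The gene value was called in 7 of the 72 genes, 6 higher and 1 lower.

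LACS1, a long-chain acyl-CoA synthetase of wax and cutin synthesis, had the smallest adjusted p. Its 5′ TC held 74.8 ± 2.16% of the gene's tags in wild type and 33.4 ± 3.79% in hen2-4, and a TC in an intron 1053 bp downstream held 17.2 ± 2.09% and 55.1 ± 6.47% (SD, n = 3, at least 544 tags per library). The LACS1 gene value had a log2 fold change of -0.06 ± 0.16. In AT5G13560, a structural maintenance of chromosomes protein gene, the TC in the 3′ UTR held 2.05 ± 0.917% and 26.6 ± 1.81%. In AT4G10750 a TC in coding sequence held 4.12 ± 0.407% and 23.59 ± 4.15%. HOL1, a methyltransferase gene, had a downstream TC at 2.80 ± 0.524% and 11.8 ± 1.88%, and HEI10 had the third TC at 14.7 ± 0.583% and 98.2 ± 3.12%, where its other starts were lost.

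**Figure D5:**
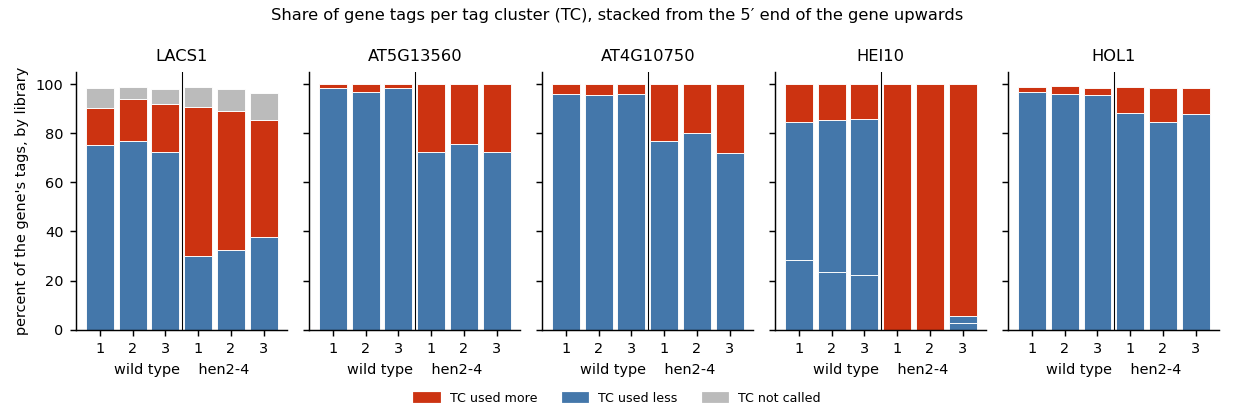
Percent of the gene's tags (y axis) in each TC, stacked from the 5′ end of the gene upwards, in the 3 wild-type and 3 hen2-4 libraries (x axis) for the 5 genes with the smallest adjusted p for TC use. Red TCs are used more and blue TCs less in hen2-4, and the red share is larger in every hen2-4 library of each gene.

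The same mutant was measured at 30 min against its own controls, in libraries that the 10 min comparison does not share. There 157 genes were higher (0.832%) and 31 lower (0.164%), and 1260 TCs were higher (4.75%) and 83 lower (0.313%). Of the 197 genes higher at 10 min, 86 were also higher at 30 min (43.7% of the first list and 54.8% of the second), and 191 had the same sign. Of the 30 genes lower at 10 min, 10 were also lower (33.3% and 32.3%). Of the 1355 TCs higher at 10 min, 925 were higher again (68.3% and 73.4%). THAS1, at -2.15 at 10 min, had a log2 fold change of -0.16 at 30 min, and AT1G79245, at 2.29, one of -0.32.

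The difference between the times was tested directly. No gene passed (0.0%), with 1079 genes (5.72%) at an unadjusted p below 0.05, 10 calls by DESeq2 and 0 by limma voom. Leaving out hen2-4 replicate 1 at 10 min or wild-type replicate 3 at 30 min gave 1 gene. One TC passed (0.00377%), which lay 201 bp upstream of and antisense to SNC1, an NLR immune receptor gene, at Chr4:9506078-9506268. It was at 1.24, 0.910 and 1.16 CPM in wild type and 3.67, 4.67 and 3.28 CPM in hen2-4 at 10 min (1.80 ± 0.22). At 30 min it was at 0.208, 0.169 and 0.277 CPM against 8.05, 7.86 and 8.01 CPM (5.15 ± 0.27), so that the effects differed by 3.35 ± 0.35 (adjusted p = 0.00179). The counts of such TCs were 2 and 3 without hen2-4 replicates 1 and 3 at 10 min and 6 without wild-type replicate 3 at 30 min.

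In rrp4-2 at 30 min, against the wild-type libraries that also served hen2-4 at 30 min, 368 genes were higher (1.95%) and 142 lower (0.752%), and 1746 TCs were higher (6.59%) and 328 lower (1.24%). Of the 197 genes higher in hen2-4 at 10 min, 116 were among the 368 (58.9% and 31.5%), and of the 1355 TCs, 1037 were among the 1746 (76.5% and 59.4%). For the falls, 12 of 30 genes were shared (40% and 8.45%). The antisense TC of AT2G18740 had 30 min means of 61.3 CPM in hen2-4 and 63.7 CPM in rrp4-2, and that of AT3G28140 of 31.8 and 40.9 CPM, whereas the start of AT1G75945 and AT5G35935 differed between the mutants as given above.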

How the data were processed

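CAGE libraries of whole seedlings were sequenced by the authors, who trimmed reads to 25 nt, mapped them to TAIR 10 with Bowtie 1.1.2 and kept unique hits (tools named in the submitters' processing notes), joined tag starts within 20 bp into TCs and kept TCs of at least 1 TPM in at least 3 libraries. Genes with near-identical copies are therefore uncertain. The count tables deposited by the authors hold raw tag counts per TC and per gene, and the TPM tables deposited by the authors hold the same tags scaled by library depth. In each of the 4 tables, 9 columns matched no labelled sample and were not used.

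The 15 labelled libraries were fitted together with 1 coefficient per group in edgeR 4.0.16 (R 4.3.3; TMM factors, filterByExpr, quasi-likelihood test), and the contrast took 3 hen2-4 and 3 wild-type libraries at 10 min. A feature was called at a Benjamini-Hochberg adjusted p of at most 0.05 and a fold of at least 2. Fold changes are log2 values with standard errors, and every adjusted p of a gene or TC comes from this edgeR fit. TC use was tested with limma 3.58.1 (voom, diffSplice), for TCs with at least 10% of a gene's tags in at least 3 libraries. Tag shares were compared by exact permutation, with Python 3.11.15, pandas 2.3.3 and SciPy 1.17.1. Where 1 group had no tag, a bound against 3 tags per library is given. Where it had 1 to 3 tags, the ratio of pooled tags is given with a 95% interval. Floors and intervals cover counting error only.

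TCs were placed against RefSeq's annotation of the same build. Primary TCs lie within 100 bp of the most upstream annotated start. Upstream antisense TCs lie within 400 bp before a protein-coding gene. Sequences come from the RefSeq genome. Named were HEN2, the 15 largest rises and 10 largest falls by fitted change among called genes of at least 1 CPM in the higher group, the 4 largest TC rises per class and 5 largest TC falls at 5 CPM, the 5 genes with the smallest p for TC use, called MIR genes and called list members. Members, lists and tests were chosen with earlier results of these data known. Alternatives were other scalings and tools (DESeq2 1.42.0, limma voom, limma-trend on log2(TPM + 1)), filters, windows, a replicate block and leaving out each library. The scripts were tested on simulated data. The replicates are pools that the labels number as separate samples, and p-values measure the spread between them. The paper describes them as sown from a shared seed batch, grown side by side and treated simultaneously in separate wells. That spread therefore does not cover differences between separate experiments.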

Additional observations from a re-analysis of the deposited data

Results flagged for a closer look

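One TC differed between the times by a direct test. The TC antisense to and upstream of SNC1 rose in hen2-4 by 1.80 on the log2 scale at 10 min and by 5.15 at 30 min, a difference of 3.35 ± 0.35 (SE, edgeR, adjusted p = 0.00179). Its wild-type level was 1.11 ± 0.173 CPM at 10 min and 0.218 ± 0.0551 CPM at 30 min, and its hen2-4 level 3.87 ± 0.718 and 7.98 ± 0.0990 CPM (SD, n = 3). In rrp4-2 at 30 min it was at 11.6 ± 0.864 CPM.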

How the results depend on the processing

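No result reversed its direction under any alternative, and 20 of 33 named genes and 24 of 25 named TCs kept their call in all of them. With DESeq2, 50 genes were lower, 196 protein-coding genes higher, 7 listed genes called, and 10 genes and 17 TCs differed between times, and limma voom gave 0 such TCs and 5 miRNA genes. Fitting the 6 libraries alone also gave 5 miRNA genes. Without a fold limit, 54 genes and 209 TCs were lower. With limma-trend, 45 TCs were lower and 6 rises carried by another TC. A 1000-bp window gave 213 upstream antisense rises and tag-share differences of 0.252 (antisense) and 0.131 (upstream antisense) percentage points. A 500-bp primary window gave 100 alternative and 281 primary rises. Counting any annotated transcript start, an alternative chosen after seeing the data, gave 190 and 191.

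Leaving out 1 library gave 85 to 191 genes higher and 17 to 30 lower, 44 to 119 protein-coding, 10 to 17 lncRNA, 8 to 13 pseudogene, 7 to 16 snoRNA and 4 to 9 miRNA genes higher, 2 to 4 listed genes, 3 to 6 rises carried by another TC, 124 to 222 alternative TCs, 25 to 50 TCs used more and 21 to 48 less, and 0 to 1 genes and 1 to 6 TCs that differed between times. With the replicate block, 171 genes were higher and 33 lower, 1266 TCs were higher and 79 lower, and 2 TCs differed between times. Same-numbered libraries deviated with correlations of 0.02, -0.39 and 0.04, so the numbers were not read as pairs.

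With 3 pools per group, permutation cannot go below p = 0.1, and TCs of few tags rest on counts near the floor.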
